A study of Mus musculus with 66 samples.

Results

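The genes described here encode receptors of phagocytes for antibody, the adaptor chains through which these receptors signal, and the enzymes and the inhibitory receptor that act on that signal. The 8 members are Fcgr1, Fcgr2b, Fcgr3, Fcer1g, Tyrobp, Sirpa, Syk and Ptpn6, chosen by name as a macrophage Fc receptor and ITAM signalling group. Each was read by probe sets, groups of short oligonucleotides for 1 transcript, that the array annotation assigns to that gene alone. They are 8 of the 8247 genes with a probe set of their own on the larger set of arrays, and they hold 13 probe sets there. Where a gene had several, the one with the highest mean over the 54 arrays was used, and the others are given where they differ.

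The arrays were made from mouse gastrocnemius, a calf muscle, either untreated or injected with cardiotoxin, a component of snake venom that kills the fibres and thereby sets off regeneration. On the later version of the Affymetrix murine array, called Av2, there were 54 arrays in 27 groups of 2, namely untreated muscle and 26 times from 12 h to 40 d after injection. On the earlier version, called A, there were 12 arrays, 2 each of untreated muscle and of muscle at 12 h, 1 d, 2 d, 4 d and 10 d. The labels give a dose of 100 µl at 10 µM for the injected A arrays, of 12 h, 1 d, 2 d, 4 d and 10 d. They give no dose for the Av2 arrays, and an age of 8 weeks for the untreated mice alone. The sources used here name no strain, genotype, sex or age of the injected mice. They also do not say if both arrays of a time came from different mice. At several times, 1 d and 4 d among them, both Av2 arrays share the number in their sample code and differ in its letters. Apart from those of permutation tests, the p-values below therefore reflect array-to-array spread alone, which may be technical. All comparisons with untreated muscle on Av2 share the same 2 control arrays.

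Receptors for the constant part of immunoglobulin G let phagocytes take up antibody-coated debris and microbes. Activating receptors borrow a tyrosine motif, the ITAM, from a small adaptor chain. Src family kinases phosphorylate this motif, the kinase Syk docks on it, and phagocytosis and the oxidative burst follow, while inhibitory receptors recruit phosphatases that damp the signal. Macrophages, which clear dead fibres from injured muscle, carry this machinery, and so do neutrophils.

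Levels are deposited intensities on a linear scale, which cannot be compared between probe sets. Median intensity per Av2 array ranged between 301 and 362, and 76.4% to 83.4% of probe sets per array lay above a floor of 64.7, to which lower values were raised before taking log2. The ratio of the 3' to the 5' probe set of b-actin, a control transcript, was under 0.2 on 7 arrays. These were replicate 2 of 12 h and both arrays of 1 d, 2 d and 4 d. The same ratio for Gapdh was under 0.2 on 9 other arrays, of which 2 were among the 4 of 16 d and 20 d and 3 among the 4 of 30 d and 40 d, against 0.451 and 0.373 in untreated muscle. In an F test over the 27 groups, 48.7% of 11997 probe sets changed (limma, Benjamini-Hochberg adjusted p under 0.05), and 7 of the 8 members were among them, all but Fcgr3. The times were also grouped into 7 windows, each set against untreated muscle.

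**Figure D1:**
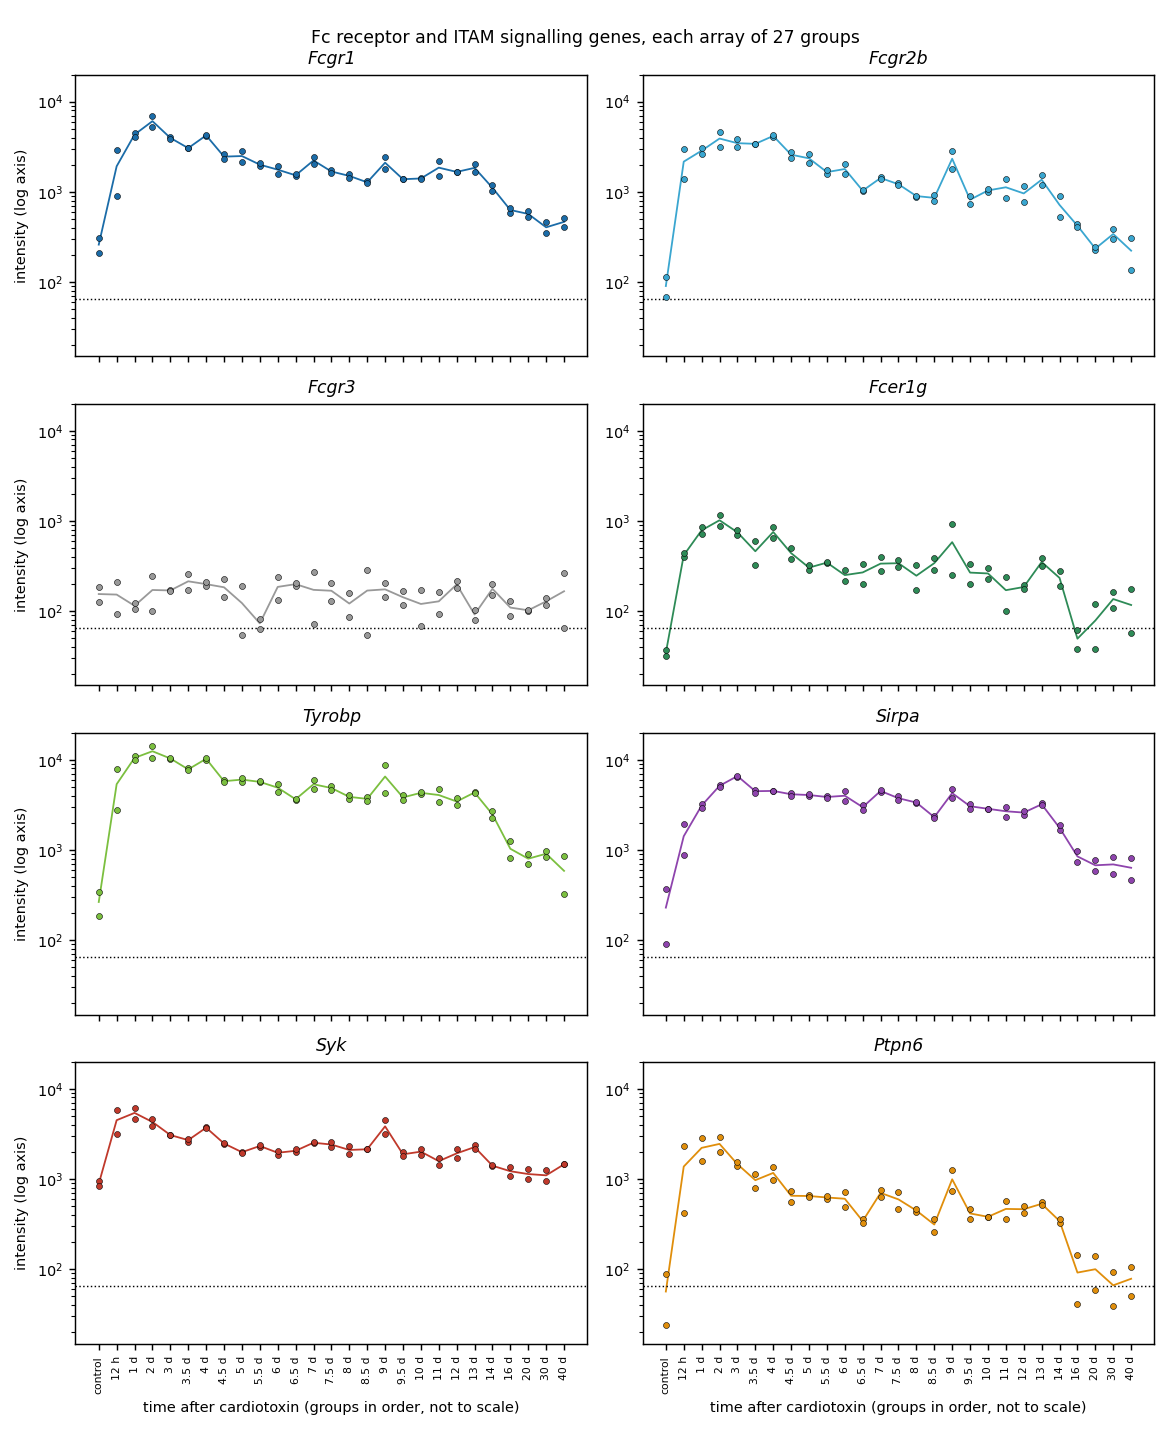
Intensity (log axis) of the brightest probe set of each of the 8 genes on every Av2 array, with the 27 groups in time order along the horizontal axis (not to scale); points are arrays, lines join group means and the dotted line is the floor of 64.7. For 7 genes every point from 12 h to 4 d lies above both untreated arrays, whereas the Fcgr3 points lie between 53.9 and 283 throughout.

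Among the receptors, Fcgr1 and Fcgr2b rose in the first days and Fcgr3 did not pass the test at any window. Fcgr1, the high-affinity receptor for immunoglobulin G, read 311 and 210 in untreated muscle, 912 and 2937 at 12 h, 4535 and 4107 at 1 d, 5268 and 6903 at 2 d, 4046 and 3892 at 3 d, and 4170 and 4297 at 4 d. Every array from 12 h to 4 d lay above both untreated arrays, and the 12 h arrays stood apart from each other. The highest group mean was 6085 ± 1156 at 2 d, which was 23.4 times the 261 ± 70.9 of untreated muscle (SD, n = 2 each). Over 12 h to 2 d, Fcgr1 was 3.77 higher than in untreated muscle on the log2 scale (SE 0.24, adjusted p = 1.49e-13). A further probe set of Fcgr1 followed the same course, with 4130 ± 875 at 2 d and both untreated arrays under the floor (44.2 and 43.8).

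Fcgr2b is the inhibitory member of the family, which carries its own inhibitory motif and acts through the lipid phosphatase Inpp5d. It read 113 and 68.1 in untreated muscle, 1375 and 2955 at 12 h, 3078 and 2654 at 1 d, 4654 and 3154 at 2 d, 3818 and 3120 at 3 d, and 4042 and 4303 at 4 d. No array up to 4 d overlapped with the untreated ones. The highest mean was 4172 ± 185 at 4 d against 90.6 ± 31.7 in untreated muscle, a 46.1-fold difference, but the means between 2 d and 4 d lay close together, and leaving out replicate 2 of 2 d moved the highest mean to 2 d. Its rise over 3 to 4.5 d was 5.26 on the log2 scale (SE 0.26, adjusted p = 1.05e-15).

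Fcgr3, the low-affinity activating receptor, read 183 and 127 in untreated muscle, and the 52 arrays of injected muscle ranged between 53.9 and 283. Injected arrays lay on both sides of the untreated ones, and the highest group mean, 214 ± 62.2 at 3.5 d, was 1.38 times the untreated mean. The difference at 3 to 4.5 d was 0.31 on the log2 scale (SE 0.52, adjusted p = 0.708), and the F test gave an adjusted p of 0.874. This is the only Fcgr3 probe set, and it was dim, with a mean of 152 over the 54 arrays. All its values lay under the lowest array median of 301. Whether it detects the transcript was not tested, so a rise of Fcgr3 may have been missed. The Fcgr2b probe set is of a type whose probes match more than 1 transcript, and the extracellular parts of Fcgr2b and Fcgr3 are nearly identical, so their signals cannot be fully told apart.

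The promoters of the 3 antibody receptors are shown because 2 of these genes rose and the third, read by a dim probe set, did not pass the test. Each runs 250 bases before to 50 after a RefSeq start in GRCm38.p6, on the minus strand, 5′ to 3′. Capitals mark the motif GAGGAA on either strand, part of the binding site of the myeloid factor PU.1, and TTCNNNGAA, the STAT site, which was searched after the sequences had been read.
Fcgr1: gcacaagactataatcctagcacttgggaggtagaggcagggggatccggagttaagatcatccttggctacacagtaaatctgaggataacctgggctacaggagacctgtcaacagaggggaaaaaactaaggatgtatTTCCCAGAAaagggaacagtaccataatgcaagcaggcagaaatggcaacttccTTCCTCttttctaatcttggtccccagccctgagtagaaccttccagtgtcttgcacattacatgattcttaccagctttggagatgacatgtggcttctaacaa
Fcgr2b: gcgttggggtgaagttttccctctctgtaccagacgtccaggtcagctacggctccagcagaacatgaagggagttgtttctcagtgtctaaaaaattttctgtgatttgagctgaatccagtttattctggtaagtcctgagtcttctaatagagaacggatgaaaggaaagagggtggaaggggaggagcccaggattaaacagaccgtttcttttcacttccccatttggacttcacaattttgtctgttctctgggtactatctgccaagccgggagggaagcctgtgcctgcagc
Fcgr3: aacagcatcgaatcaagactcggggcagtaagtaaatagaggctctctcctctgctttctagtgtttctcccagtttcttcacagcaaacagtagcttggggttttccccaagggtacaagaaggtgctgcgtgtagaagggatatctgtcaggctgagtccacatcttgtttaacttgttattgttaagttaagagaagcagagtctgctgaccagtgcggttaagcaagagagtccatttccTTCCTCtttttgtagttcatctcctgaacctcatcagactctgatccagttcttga
The windows lie at chr3:96293920-96294219 for Fcgr1, chr1:170976022-170976321 for Fcgr2b and chr1:171059354-171059653 for Fcgr3. Those of Fcgr1 and Fcgr2b lie at the 5′ end of the gene. That of Fcgr3 lies at a start inside the gene, which spans 171051169 to 171065915, so the 3 are not fully alike. Fcgr1 held GAGGAA on the reverse strand from position -55 and TTCNNNGAA from position -109, which do not overlap. Fcgr3, which did not pass the test, held GAGGAA on the reverse strand from position -6, and the same motif lies at -15 from its second listed start. Fcgr2b, which rose, held neither. A second start of Syk also held GAGGAA, from position -9. Of 32851 promoter windows of this length, 28.3% held GAGGAA and 8.3% held TTCNNNGAA, and 6 of the 8 members had an entry, all but Tyrobp and Sirpa.

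Both adaptor chains rose. Fcer1g, the gamma chain that Fcgr1 and Fcgr3 need for surface expression and signalling, was under the floor in untreated muscle at 37.5 and 31.6, and read 396 and 437 at 12 h, 861 and 714 at 1 d, 1165 and 870 at 2 d, 700 and 796 at 3 d, and 855 and 654 at 4 d. All arrays from 12 h to 4 d lay above the floor and above both untreated arrays. The 2 d mean of 1017 ± 209 was at least 15.7-fold higher than untreated muscle taken at the floor. Over 12 h to 2 d the difference was at least 11.4-fold (adjusted p = 2.26e-08). The other Fcer1g probe set was dim and went against this, at 73.3 ± 46.3 over 12 h to 2 d (n = 6) and 101 and 94.5 in untreated muscle, a log2 difference of -0.29 (adjusted p = 0.727). The brighter one is of a type whose probes can match related sequences.

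Tyrobp, also called DAP12, is the adaptor of the Trem and other activating receptors of myeloid cells. It read 346 and 184 in untreated muscle, 2795 and 7913 at 12 h, 10909 and 10048 at 1 d, 14261 and 10576 at 2 d, 10067 and 10574 at 3 d, and 9906 and 10569 at 4 d. No array up to 4 d overlapped with the untreated ones, and those of 1 d to 4 d all lay between 7631 and 14261. The highest mean, 12419 ± 2605 at 2 d, was 46.9 times the 265 ± 115 of untreated muscle, and the log2 difference over 12 h to 2 d was 5.07 (SE 0.30, adjusted p = 2.91e-14).

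Sirpa, the macrophage receptor for Cd47 that recruits Ptpn6 and restrains uptake, came later. It read 91.0 and 368 in untreated muscle, 882 and 1956 at 12 h, 3255 and 2952 at 1 d, 5289 and 4982 at 2 d, 6507 and 6670 at 3 d, and 4540 and 4479 at 4 d. Untreated arrays lay far apart, yet all arrays up to 4 d lay above both. All 3 Sirpa probe sets were highest at 3 d, the brightest with 6588 ± 115, or 28.7 times the untreated mean of 229 ± 196. The log2 difference was 4.73 over 3 to 4.5 d (SE 0.29, adjusted p = 4.3e-14).

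Syk, the kinase that docks on phosphorylated ITAMs, had the earliest highest mean of the group, at 1 d. It read 937 and 828 in untreated muscle, 3120 and 5837 at 12 h, 6192 and 4596 at 1 d, 4653 and 3910 at 2 d, 3078 and 3054 at 3 d, and 3723 and 3676 at 4 d. No array overlapped with the untreated ones. The highest mean, 5394 ± 1129 at 1 d, was 6.11 times the untreated 882 ± 77.7, and without replicate 1 of 12 h the highest mean lay at 12 h. Its log2 difference over 12 h to 2 d was 2.38 (SE 0.17, adjusted p = 1.85e-12). The other Syk probe set was above the floor on only 3 arrays.

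Ptpn6, the tyrosine phosphatase that inhibitory receptors recruit, read 24.2 and 88.8 in untreated muscle, 425 and 2319 at 12 h, 2842 and 1579 at 1 d, 2891 and 2001 at 2 d, 1390 and 1524 at 3 d, and 985 and 1347 at 4 d. No array up to 4 d overlapped with the untreated ones, of which 1 was under the floor. The highest mean was 2446 ± 630 at 2 d against 56.5 ± 45.6 in untreated muscle, and without replicate 2 of 1 d, or without replicate 1 of 2 d, it lay at 1 d. The log2 difference over 3 to 4.5 d was 3.73 (SE 0.38, adjusted p = 1.94e-09).

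At 12 h alone, 7 of the 8 members were already called higher than in untreated muscle, where 10.5% of all probe sets were. The count was also 7 without either 12 h array and without either untreated array, a check chosen after seeing the data in which the lone array is assumed to vary like the other groups. Between 12 h and 1 d, Fcgr1 rose by a further 1.40, Sirpa by 1.24 and Tyrobp by 1.16 on the log2 scale (adjusted p = 0.00187, 0.0251 and 0.0386), so 3 members were called higher where 5.84% of all probe sets were. No member passed the test between 1 d and 2 d or between 2 d and 3 d (adjusted p of 0.261 or more), so the day of the highest mean is not separated from its neighbours.

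In every window from 12 h to 16 d the same 7 members were called higher than in untreated muscle. The share of all probe sets called higher was 17.7% at 12 h to 2 d, 22.2% at 3 to 4.5 d, 19% at 5 to 7.5 d, 16.9% at 8 to 10 d and 13.9% at 11 to 16 d. The median log2 difference of the 8 members was 3.84, 3.72, 2.90, 2.58 and 2.23 in these windows in that order, and the median of all probe sets was at most 0.0287 in each. Without the 7 arrays low in b-actin 3', replicate 1 of 12 h is the only array left of 12 h to 2 d, so this window has no replicate check without them. In bulk tissue, more cells of a type and more RNA per cell cannot be told apart.

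**Figure D2:**
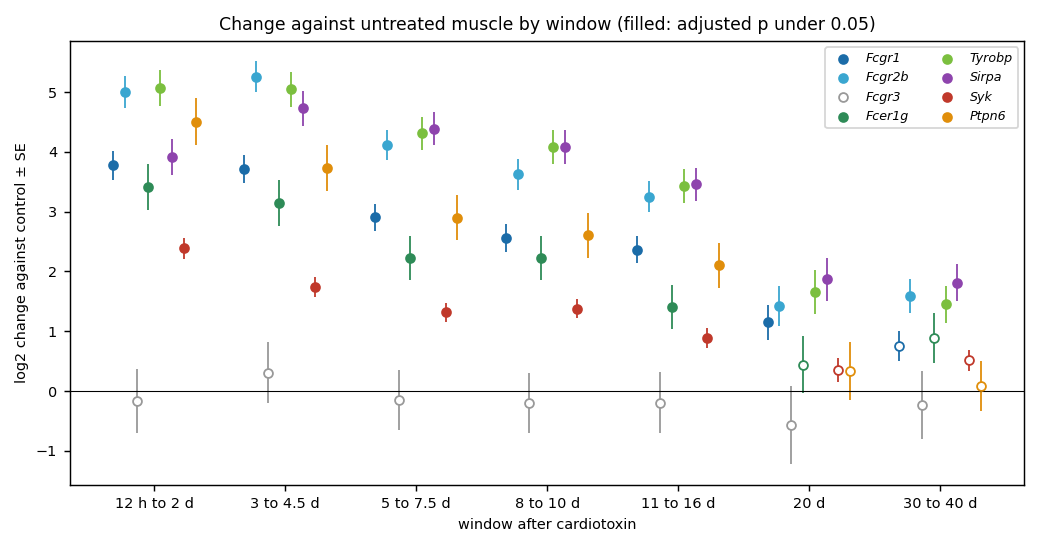
Log2 change against untreated muscle with its standard error (vertical axis) for the 8 genes in 7 windows after injection (horizontal axis); filled points passed the adjusted threshold of 0.05 and open points did not. Filled points run through 11 to 16 d for 7 genes, and 3 genes (Fcgr2b, Tyrobp and Sirpa) are filled at 30 to 40 d.

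Decay was compared on each gene's own rise, with the untreated mean as 0% and its highest group mean as 100%. Syk was first below 50% at 3 d, Fcgr1, Fcer1g and Ptpn6 at 3.5 d, Tyrobp at 4.5 d, Fcgr2b at 5.5 d and Sirpa at 6.5 d. With each array left out in turn, these days ranged from 3 to 3.5 d for Syk and Ptpn6, 3.5 to 4.5 d for Fcgr1 and Fcer1g, 4.5 to 6 d for Tyrobp and 5 to 5.5 d for Fcgr2b, and Sirpa stayed at 6.5 d. The Sirpa day depended on the probe set, since the other 2 were first below 50% at 4 d and 8.5 d. At 5 d, Syk stood at 24.3% of its rise and Sirpa at 60.3%. The courses are not smooth, since Fcgr1, Fcer1g and Syk were above 50% at 4 d after lying below it at 3.5 d. Sirpa, at 43.3% at 6.5 d, was back at 67.2% at 7 d and 55.3% at 7.5 d. Fcgr2b, Fcer1g, Tyrobp, Sirpa and Syk were above 50% again at 9 d. Both 4 d arrays are among the 7 low in b-actin 3', whose part in the 4 d values was not tested. The highest means of Syk (1 d), of Fcgr1, Fcer1g, Tyrobp and Ptpn6 (2 d) and of Fcgr2b (4 d) also come from these arrays alone. That of Sirpa (3 d) does not. What the low b-actin ratio means for the order of highest means and of decay was not tested.

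**Figure D3:**
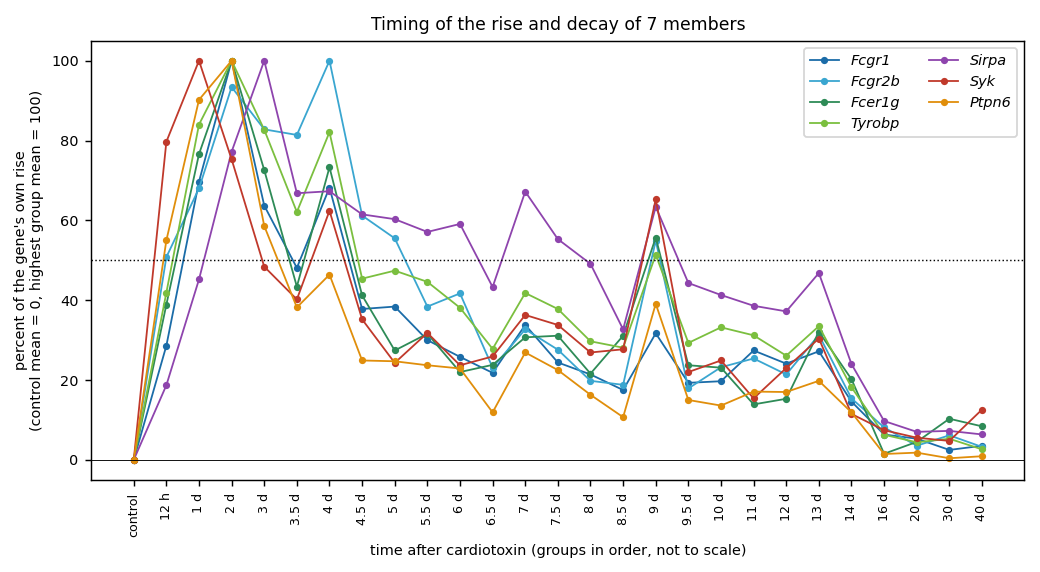
Group mean of 7 genes as a percentage of each gene's own rise (vertical axis; untreated mean at 0, highest group mean at 100) over the 27 groups in time order (horizontal axis, not to scale); the dotted line is 50%. Syk is highest at 1 d and Sirpa at 3 d, and Sirpa is back above the line at 7 d. The other courses first fall below the line between 3.5 d and 5.5 d. At 9 d the percentages reach 31.7% for Fcgr1 to 65.3% for Syk.

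Neighbouring windows were compared as well. From 12 h to 2 d to 3 to 4.5 d, Sirpa rose by 0.81 (SE 0.20, adjusted p = 0.00164), the single member called higher where 16.9% of all probe sets were. Syk fell by 0.64 (adjusted p = 3.63e-05) and Ptpn6 fell by 0.77 (adjusted p = 0.0261), 2 members where 10.7% of all probe sets were called lower. The Sirpa step was 0.28 without the 12 h arrays (adjusted p = 0.396). The Ptpn6 call was lost without any 1 of 6 arrays (replicate 2 of 12 h, replicate 1 of 1 d, replicate 1 of 2 d, replicate 2 of 3.5 d, replicate 1 of 4 d or replicate 2 of 4.5 d; adjusted p from 0.0572 to 0.252). Without the 7 arrays low in b-actin 3', which leaves 1 of the 6 early arrays, 5 members were called higher and none lower, Ptpn6 turned to 1.18 (adjusted p = 0.021) and Syk stood at -0.19 (adjusted p = 0.492).

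From 3 to 4.5 d to 5 to 7.5 d, 6 members fell, where 12% of all probe sets did. Fcgr2b fell by 1.14, Fcer1g by 0.92, Ptpn6 by 0.83, Fcgr1 by 0.81, Tyrobp by 0.73 and Syk by 0.43 on the log2 scale (adjusted p of 0.00611 or less), while Sirpa changed by -0.34 without passing (adjusted p = 0.153). From 5 to 7.5 d to 8 to 10 d limma called 0 members lower, where 1.42% of all probe sets were, and 2 (Fcgr1 and Fcgr2b) had an unadjusted p under 0.05. Without the 9 d arrays, 2 members were called lower at this step.

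The 9 d arrays stood above their neighbours. Fcgr2b read 793 and 926 at 8.5 d, 2849 and 1814 at 9 d, and 906 and 733 at 9.5 d. Syk read 2140 and 2127 at 8.5 d, 4514 and 3140 at 9 d, and 1972 and 1781 at 9.5 d. For 6 of the 8 members, all but Fcer1g and Fcgr3, both 9 d arrays lay above every array of 8.5 d and 9.5 d. At 9 d Fcgr2b was 1.41 and Syk 0.82 higher than at 8.5 d (adjusted p = 0.0192 and 0.0311), 2 members where 1.16% of all probe sets were called higher. At 9.5 d the log2 differences from 9 d were -1.48 for Fcgr2b and -1.01 for Syk (adjusted p = 0.0159 and 0.00733), where 0.784% of all probe sets were called lower. Fcer1g read 915 and 249 and Tyrobp 8706 and 4317 at 9 d, so that their 2 arrays stood apart, and no other member passed. These single-time steps were tested after seeing the 9 d values. The sum of 12 neutrophil markers was 37743 and 15275 at 9 d, against 4886 to 6016 over the arrays of 8.5 d and 9.5 d, and that of 13 monocyte and macrophage markers was 111240 and 79079, against 52902 to 65449. The part of these cells in the 9 d values was not tested.

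Levels of most members fell between 13 d and 20 d. From 8 to 10 d to 11 to 16 d, 4 members fell (Fcer1g by 0.82, Tyrobp by 0.65, Sirpa by 0.63 and Syk by 0.49), where 3.36% of all probe sets did. This count was 0 without the 9 d arrays, 0 without the arrays low in the Gapdh ratio and 1 without the 16 d arrays. From 11 to 16 d to 20 d, 6 members fell, all but Fcer1g (adjusted p = 0.125) and Fcgr3, where 4.37% of all probe sets did, and 3 did without replicate 1 of 20 d. For Tyrobp and Ptpn6 the array values dropped between 14 d and 16 d. Tyrobp read 2237 and 2715 at 14 d, 808 and 1252 at 16 d, and 900 and 699 at 20 d, and Ptpn6 read 325 and 359, 41.4 and 142, and 58.3 and 141 at these times. The 16 d arrays thus overlapped with those of 20 d and not with those of 14 d. With 16 and 20 d set against 12 to 14 d, a comparison chosen after seeing this, 7 members were lower, where 7.88% of all probe sets were. Ptpn6 changed by -2.19, Tyrobp by -1.89, Sirpa and Fcer1g by -1.70, Fcgr2b by -1.61, Fcgr1 by -1.33 and Syk by -0.64 (adjusted p of 0.00119 or less). Without the arrays low in the Gapdh ratio 6 of them were lower, all but Syk (-0.52, adjusted p = 0.113). Between 16 d and 14 d alone, Fcer1g passed with -1.83 (adjusted p = 0.0485), where 1.08% of all probe sets were called lower, and so did the other Fcgr1 probe set with -2.67 (adjusted p = 0.00123). The median log2 change of the 8 members was -0.941 at this step. It was already -0.707 from 13 d to 14 d, where 0 members and 0.117% of all probe sets were called lower. Fcgr2b changed by -0.97 and Syk by -0.68 from 13 d to 14 d, and by -0.72 and -0.21 from 14 d to 16 d. The sum of the monocyte and macrophage markers was 45404 and 57387 at 14 d, 18721 and 24168 at 16 d, and 19217 and 18078 at 20 d; its part in the fall was not tested.

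At 20 d, 4 members were still called higher than in untreated muscle, where 3.49% of all probe sets were. They were Sirpa (1.87 on the log2 scale), Tyrobp (1.65), Fcgr2b (1.42) and Fcgr1 (1.15). The further probe sets did not all follow. Of those for Sirpa, 1 passed with 1.90 (adjusted p = 0.0107), and 1 read 106 and 207 at 20 d against 232 and 263 in untreated muscle, a log2 difference of -0.74 (adjusted p = 0.515). The further Fcgr1 probe set read 59.7 and 63.6 at 20 d, under the floor, as in untreated muscle. With only 2 arrays at 20 d this count was 1 without replicate 1 of 20 d or replicate 2 of untreated muscle, and 2 without replicate 2 of 20 d.

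At 30 to 40 d, 3 members were called higher than in untreated muscle, where 4.69% of all probe sets were. Sirpa read 540 and 842 at 30 d and 804 and 464 at 40 d, against 91.0 and 368 in untreated muscle. Fcgr2b read 298 and 386 at 30 d and 310 and 137 at 40 d, against 113 and 68.1 in untreated muscle. All 4 late arrays of both genes lay above both untreated arrays. Tyrobp read 835 and 981 at 30 d and 848 and 325 at 40 d, against 346 and 184 in untreated muscle, so that 3 of its 4 late arrays lay above both. The log2 differences were 1.81 for Sirpa (SE 0.31, adjusted p = 4.17e-04), 1.59 for Fcgr2b (SE 0.29, adjusted p = 6.62e-04) and 1.45 for Tyrobp (SE 0.32, adjusted p = 0.00398). Each call rests on the 2 untreated arrays and on late arrays of which 3 were low in the Gapdh 3' to 5' ratio. Without the arrays low in that ratio, an alternative added after seeing the data, replicate 2 of 40 d alone was left and 0 members were called, with Sirpa at 1.34 (adjusted p = 0.127), Fcgr2b at 0.64 (adjusted p = 0.384) and Tyrobp at 0.37 (adjusted p = 0.77). That array is assumed to vary like the other groups, and what the low Gapdh ratio means for the late values was not tested. Without replicate 1 of untreated muscle Sirpa stood at 0.80 (adjusted p = 0.128), and without replicate 2 Fcgr2b stood at 1.225 (adjusted p = 0.0594) and Tyrobp at 0.99 (adjusted p = 0.194), which left 1 member called. Of the other Sirpa probe sets, 1 passed with 1.70 (adjusted p = 0.0063) and 1 did not, with 0.42 (adjusted p = 0.693).

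Monocyte and macrophage markers were also above untreated muscle at 30 to 40 d, with 7 of 13 called higher (median log2 difference 0.789, against 0.00789 for all probe sets), and their part in the members' late values was not tested. The remaining members did not pass at 30 to 40 d. Fcgr1 averaged 436 ± 73.9 and Syk 1275 ± 240 (n = 4), against 261 ± 70.9 and 882 ± 77.7 in untreated muscle (n = 2). All 4 late arrays of both genes lay above both untreated ones, with log2 differences of 0.75 (adjusted p = 0.0706) and 0.51 (adjusted p = 0.0844). Fcer1g averaged 127 ± 55.7 against 2 untreated arrays under the floor, at least 1.96-fold higher (adjusted p = 0.231). With 0.5 times the floor it passed, with a log2 difference of 1.73 (adjusted p = 0.0206). Ptpn6 averaged 72.3 ± 32.4 against 56.5 ± 45.6, and Fcgr3 147 ± 86.3 against 155 ± 39.8, each with overlapping arrays. As a share of its own rise, the level left was 0.659% for Ptpn6, 3.01% for Fcgr1, 3.97% for Tyrobp, 4.70% for Fcgr2b, 6.81% for Sirpa, 8.69% for Syk and 9.37% for Fcer1g. From 20 d to 30 to 40 d, limma called 0 members lower, where 0.383% of all probe sets were, and 0 had an unadjusted p under 0.05 in either direction.

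**Figure D4:**
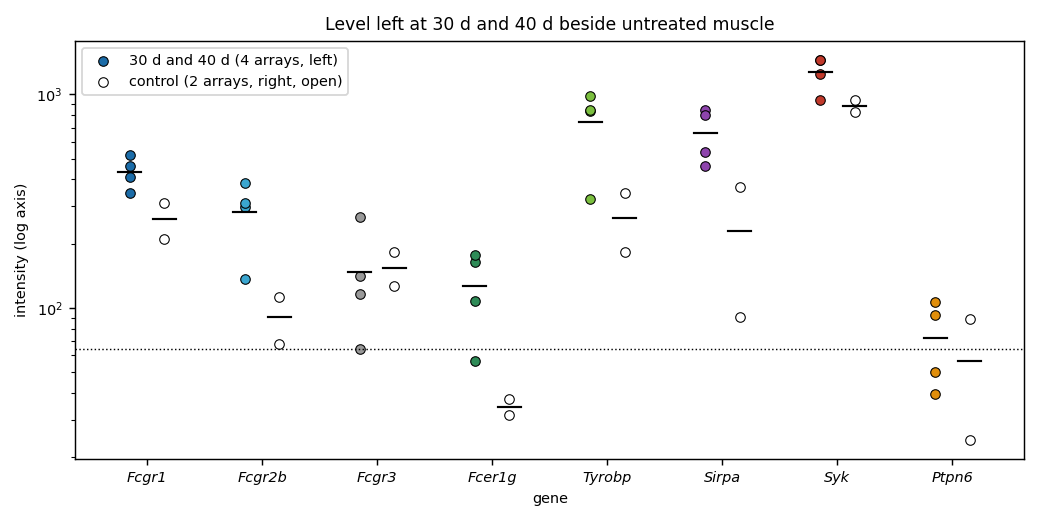
Intensity (log axis) of the 8 genes on the 4 arrays of 30 d and 40 d (filled, left of each pair) and on the 2 untreated arrays (open, right); bars are means and the dotted line is the floor of 64.7. For Fcgr2b and Sirpa all 4 late points lie above both open points, for Tyrobp 3 of 4 do, and the Ptpn6 and Fcgr3 points overlap.

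Within-array log2 differences between members of opposite or parallel roles were compared between neighbouring windows, as 3 pairs over 5 steps. Of these 15 tests, 3 passed (exact two-sided permutation test, Benjamini-Hochberg adjusted over 15). All 3 lay between 20 to 40 d (n = 6 arrays) and 11 to 16 d (n = 10 arrays). Each window pools arrays of several times, which were shuffled singly, so these p-values mix change over time with array spread. Fcgr3 minus Fcgr2b was 1.57 higher in the later window (exact permutation p = 0.00137, adjusted p = 0.015), Syk minus Ptpn6 was 1.51 higher (exact permutation p = 0.002, adjusted p = 0.015), and Tyrobp minus Fcer1g changed by -1.24 (exact permutation p = 0.00525, adjusted p = 0.0262). Fcgr3 did not pass the F test over the time course (adjusted p = 0.874), so its difference from Fcgr2b mainly restates the late fall of Fcgr2b. Several late arrays of Ptpn6 and Fcer1g lay at the floor, so the sizes for the pairs with these 2 genes are bounded by it. Syk minus Ptpn6 was 2.12 below its untreated value at 12 h to 2 d, as a log2 difference of -2.12, and 0.29 above it at 20 to 40 d, with no test of either.

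Markers of monocytes and macrophages rose with these genes, and other marker lists differed. Of 13 monocyte and macrophage markers, 11 rose at 3 to 4.5 d (median log2 difference 3.52, against 0.00156 for all probe sets), among them Ccr2 by 5.61, Ctss by 4.49 and Adgre1, a surface marker of tissue macrophages, by 3.52. Their summed intensity had a median of 8603 in untreated muscle, 86785 at 12 h to 2 d, 102955 at 3 to 4.5 d, 18648 at 20 d and 21018 at 30 to 40 d. Of these markers only Marco was under the floor on both untreated arrays. The sum of 12 neutrophil markers had a median of 3545 in untreated muscle, 51798 at 12 h to 2 d and 6653 at 3 to 4.5 d. The highest means of Syk, Fcgr1, Fcer1g, Tyrobp and Ptpn6 lie in the first of these windows, and between them 7 of the 12 neutrophil markers fell. In untreated muscle S100a9, Ly6g and Mmp8 were under the floor. The sum of 6 B cell markers was 10529 on replicate 2 of 12 h, against 1061 to 2537 on every other array. That array also had the higher value of the 2 at 12 h for 7 of the 8 members. Sums of mast cell markers (9 genes) ranged between 2830 and 8948 at 12 h to 2 d, against 1577 to 2454 in untreated muscle, with Mcpt4 and Tpsab1 under the floor in both, while of 8 tested genes 2 rose and 2 fell (median log2 difference -0.346). The 10 T and natural killer cell markers and the 5 dendritic cell markers had median sums of 780 and 2512 at 3 to 4.5 d, against 836 and 1852 in untreated muscle. Of 8 muscle fibre markers, 4 fell and none rose at 3 to 4.5 d, among them Ckm by 3.22. The part of any of these cell types in the members' values was not tested.

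**Figure D5:**
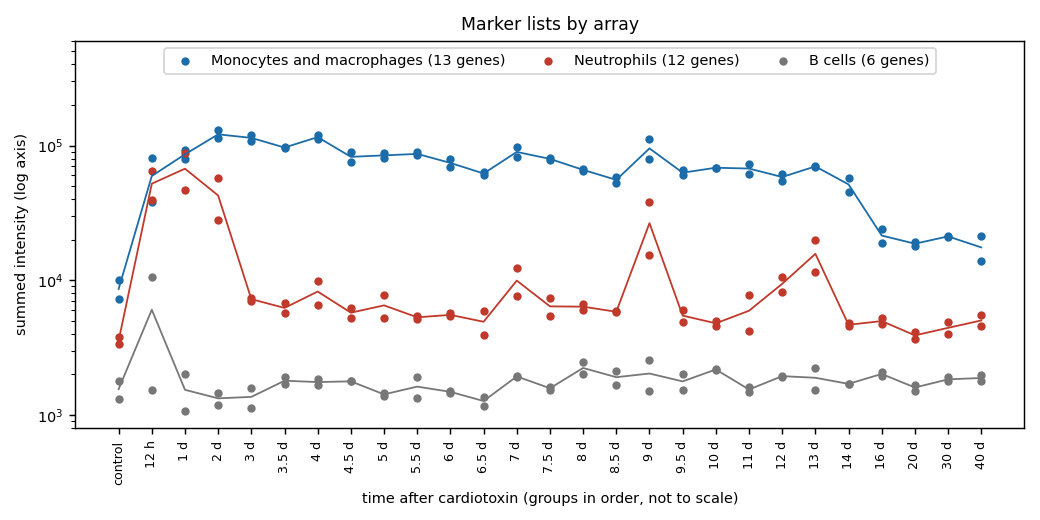
Summed intensity (log axis) of marker genes of monocytes and macrophages (13 genes), neutrophils (12 genes) and B cells (6 genes) on every Av2 array over the 27 groups in time order (not to scale); points are arrays and lines join group means. The macrophage sum lies between 45404 and 129293 from 1 d to 14 d and between 13854 and 24168 from 16 d on. The neutrophil sum is high at 12 h to 2 d and again at 9 d, and is also raised at 13 d (19907 and 11456). For B cells, 1 array of 12 h stands out.

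The rest of the pathway was followed through lists of genes. Of 33 Src family kinases, adaptors and other signalling genes that act below ITAMs, 25 rose and 1 fell at 3 to 4.5 d (median log2 difference 1.30). Of all probe sets, 22.2% were called higher and 18.5% lower. Largest were Was, which drives actin assembly at the phagocytic cup (3.96), the exchange factor Vav1 (3.74), Dock2 (2.95) and the kinase Btk (2.94), and the one that fell was Pik3r1 (-1.14). At 30 to 40 d 3 of the 33 were called higher, where 4.69% of all probe sets were. Of 15 other receptors that signal through ITAM adaptors, 4 rose and 2 fell (median 0.30), counts that lie near those shares of all probe sets. The rises were the integrin chains of complement receptor 3, Itgam (4.17) and Itgb2 (3.75), the lectin Clec4d (2.85) and Selplg (2.41), and the falls were Ms4a2 (-1.18) and Fcer1a (-0.89), chains of the mast cell receptor for immunoglobulin E. None of the 15 passed at 30 to 40 d.

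Of 19 inhibitory receptors, phosphatases and adaptors, 12 rose and none fell at 3 to 4.5 d (median 1.28), where 22.2% of all probe sets rose, led by Inpp5d (4.29), the phosphatase Ptprc or CD45 (3.72), the inhibitory receptor Pirb (2.54) and the phosphatase Ptpn22 (2.44). Cd47, the ligand of Sirpa, was among them with 1.32 (adjusted p = 3.95e-05), at a mean of 4066 over 3 to 4.5 d and 1634 in untreated muscle. Ptprc is also a marker of all leukocytes, so its rise is not read here as one of inhibition. All 4 measured chains of the phagocyte oxidase, which makes the oxidative burst, rose as well: Ncf1 by 3.56, Ncf4 by 3.18, Cybb by 3.09 and Cyba by 2.95. At 30 to 40 d, 1 of the 19 and 2 of the 4 were called higher, where 4.69% of all probe sets were, so the count among the 19 lies near that share.

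Across the 27 group means of log2 intensity, the members except Fcgr3 ran closely together, with Pearson's r between 0.711 (Sirpa and Syk) and 0.974 (Tyrobp with Fcgr1 and with Fcgr2b). Fcgr3 had r between 0.202 and 0.261 with the others. Of 8075 other genes, those most like the mean standardised course of the members were Actr3 (r = 0.978), Btk (0.972), Tnfrsf1b (0.971), Vav1 (0.970), Inpp5d (0.967), Cd52 (0.967), Pnp (0.966), Cstb (0.962), Ptprc (0.957) and Cfp (0.957). All points share their arrays, so these values are a description.

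The earlier array gave a second reading of 6 members at 5 times, with a floor of 646.8. Its untreated and 12 h arrays carry the same sample codes as those of Av2, so at these groups both versions may have read the same specimens and are not taken as independent. Its Fcer1g probe set was listed at 0 on all 12 arrays, and Fcgr3 was under the floor on all. Tyrobp read 567 and 7.32 in untreated muscle, both under the floor, 3672 and 7296 at 12 h, 10634 and 7409 at 1 d, 11068 and 9699 at 2 d, 8908 and 9101 at 4 d, and 4565 and 4346 at 10 d, with no overlap. The 2 d value was at least 16.1-fold above untreated muscle (adjusted p = 8.99e-05). Sirpa, under the floor in untreated muscle, read 3892 and 4069 at 2 d, 3078 and 3096 at 4 d, and 2230 and 2051 at 10 d. Syk had its highest group mean at 1 d on this array too, with 4804 and 3155 against 1116 and 840 in untreated muscle (log2 difference 2.01, adjusted p = 0.0097). Its 12 h arrays, at 1865 and 5699, lay on both sides of these 1 d values, so 12 h and 1 d are not separated. Fcgr1 was highest at 2 d, with 4811 and 5801 against 1163 and 897 (log2 difference 2.37, adjusted p = 0.00201). Of the 6 members, 3 were called higher at 12 h (Tyrobp, Fcgr2b and Syk), 6 at each of 1 d and 2 d, 5 at 4 d (all but Ptpn6, adjusted p = 0.0623) and 2 at 10 d (Tyrobp and Sirpa). The share of all probe sets called higher on this array was 9.05% at 12 h, 19.3% at 1 d, 23.6% at 2 d, 22.9% at 4 d and 13.3% at 10 d. The count at 12 h was 1 without either untreated array and 6 without replicate 1 of 12 h.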

How the data were processed

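Values were those deposited by the authors, 1 table per array version. The tables name no unit; from their range the deposited numbers were taken as linear intensity, with each array already scaled to a common trimmed mean. The software behind them is not given in the sources used here. Values were used without further scaling, raised to a floor (64.7 on Av2, the 20th percentile of the median array; 646.8 on A, from the spread of negative values) and put on the log2 scale. Of 12488 Av2 probe sets, 66 manufacturer controls were left out, and 11997 with at least 2 arrays above the floor were tested. On A 4742 were tested. limma 3.58.1 in R 4.3.3 was fitted with 1 mean per group. Windows were equally weighted means of their times minus the mean of the 2 untreated arrays. P-values were adjusted by Benjamini-Hochberg over all tested probe sets of a comparison, at 0.05. Fits were tested on simulated data. Symbols came from the platform annotation: 10833 probe sets had 1 symbol, 396 several and 1193 none. Where untreated arrays lay under the floor, fold changes are lower bounds.

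Named were all 8 members and, per pathway list, up to 4 genes with the largest called change at 3 to 4.5 d, with the 10 genes most like the members. Also named, after their values were seen, were Pik3r1, Ms4a2, Fcer1a, Cd47, marker genes and the further probe sets. Members and lists were chosen with earlier results of these data known. Alternatives were quantile and median scaling, 0.5 and 2 times the floor, no or a stricter filter, each array left out, other probe sets or their mean, the number in the sample code as a block, and fits without 12 h, 9 d, 16 d, low b-actin or low Gapdh arrays. The fits without 16 d and without low Gapdh arrays, the 16 and 20 d comparison and single-time steps were added after seeing the data. Every array column was mapped to a sample. Python 3.11.15 was used for permutation tests and figures.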

Additional observations from a re-analysis of the deposited data

How the results depend on the processing

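Precision is limited by 2 arrays per group and by the floor, under which untreated Fcer1g and 1 untreated array of Ptpn6 lay. Over all alternatives that leave out no single array, 774 of 823 values were rated as unchanged. For log2 differences this meant the same direction and side of the threshold. For counts it meant staying within a fixed factor of the main count, and for days of the course the same day. For members called lower, the count from 12 h to 2 d to 3 to 4.5 d was 1 with 0.5 times the floor and 0 without the arrays low in b-actin 3', and members called higher there were 0 without the 12 h arrays and 5 without low b-actin arrays. Ptpn6 turned to 1.18 at this step without low b-actin arrays. At 8 to 10 d, members called lower were 1 with 2 times the floor, 1 with the replicate block and 2 without the 9 d arrays, and at 11 to 16 d they were 0 without 9 d, 1 without 16 d and 1 when each gene's probe sets were averaged. At 20 d, 2 members were called higher under that averaging. On A, 1 member was called at 12 h with 2 times the floor. The replicate block changed no other call, and only the numbers in the sample codes are shared. At times where both arrays carry the same number, the block cannot tell them apart. Over all probe sets, counts were 251 (median scaling), 242 (without 9 d) and 70 (without 16 d) lower at 11 to 16 d (403), 26 lower at 30 to 40 d with 0.5 times the floor (46), and 719 higher at 12 h and at 12 h to 2 d without low b-actin arrays. Without the arrays low in the Gapdh ratio, members called were 0 at 30 to 40 d and 0 lower at 11 to 16 d, and over all probe sets 269 were higher at 30 to 40 d, and 112 were lower at 8 to 10 d, 203 at 11 to 16 d, 214 at 20 d, 150 at 30 to 40 d and 443 at 16 and 20 d against 12 to 14 d. The other Fcer1g probe set gave -0.29 at 12 h to 2 d and -0.36 at 3 to 4.5 d. With 2 times the floor, Fcgr3 minus Fcgr2b passed from 3 to 4.5 d to 5 to 7.5 d (0.97, adjusted p = 0.0117), and from 8 to 10 d to 11 to 16 d Tyrobp minus Fcer1g was -0.0741 and Syk minus Ptpn6 was -0.0897 (-0.0300 with quantile normalization). The cause of these differences was not tested.

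With each array left out in turn, members called ranged from 1 to 3 at 20 d and at 30 to 40 d, from 1 to 3 lower at 3 to 4.5 d, from 0 to 1 lower at 8 to 10 d, from 3 to 6 lower at 20 d, and from 1 to 6 at 12 h on A. Ptpn6 at 30 to 40 d ranged from -0.15 to 0.31. The highest mean ranged from 2 to 4 d for Fcgr2b, 0.5 to 1 d for Syk and 1 to 2 d for Ptpn6. Counts over all probe sets ranged from 685 to 1781 higher at 12 h, 1091 to 1714 at 11 to 16 d, 206 to 316 at 20 d and 263 to 530 at 30 to 40 d, and from 267 to 403 lower at 11 to 16 d, 242 to 565 at 20 d, 18 to 93 at 30 to 40 d and 110 to 223 at 8 to 10 d. Median scaling moved the share of calls that were higher to 44.2% at 3 to 4.5 d, 43% at 5 to 7.5 d, 42.1% at 8 to 10 d, 46.7% at 11 to 16 d, 60.4% at 20 d and 53.2% at 30 to 40 d, from 54.5%, 54%, 55%, 57.6%, 75.1% and 67.3%. For the steps it moved to 46.7% at 3 to 4.5 d (61.2%) and 63.9% at 11 to 16 d (48.5%).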

Other observations

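Several genes of the wider pathway were above untreated muscle at 30 to 40 d (limma, adjusted over all probe sets). Ncf1, a cytosolic chain of the phagocyte oxidase, averaged 400 at 30 to 40 d and 98.3 in untreated muscle, a log2 difference of 1.99 (adjusted p = 0.00254). Cybb, the catalytic chain of the same enzyme, was 1.14 higher (adjusted p = 0.0172), while Ncf4 and Cyba did not pass. Was, a regulator of actin assembly in blood cells, averaged 286 at 30 to 40 d and 60.2 in untreated muscle, where it lay under the floor (adjusted p = 6.02e-04). The adaptor Grb2 was 0.87 higher (adjusted p = 6.46e-04) and the adaptor Shc1 0.56 (adjusted p = 0.0471), both of which many cell types express. Pirb, an inhibitory receptor of myeloid cells, was the 1 inhibitory gene called, with 518 at 30 to 40 d and 271 in untreated muscle (adjusted p = 0.0305).

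Among markers of monocytes and macrophages, Ccr2, the receptor that brings monocytes into tissue, was 2.28 higher at 30 to 40 d than in untreated muscle (adjusted p = 3.99e-05). The lysosomal protease Ctss was 2.02 higher (adjusted p = 4.5e-07), at 4869 over 30 to 40 d and 1189 in untreated muscle. Csf1r, the receptor for macrophage growth factor, was 0.79 higher (adjusted p = 0.0158). These genes were named after their values were seen, and all of these differences rest on the same 2 untreated arrays and on late arrays of which 3 of 4 were low in the Gapdh 3' to 5' ratio.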
